A study of Drosophila melanogaster with 18 samples.

Results

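The change in ovary RNA levels that accompanied a homozygous Marcal1 deletion was set against itself in a pair of genetic backgrounds, one carrying the allele RpII2154 of RpII215 over the X-chromosome balancer FM7 and one without it. The measure for each gene was the log2 change with RpII2154/FM7, from RpII2154/FM7;Marcal1del/del and RpII2154/FM7 ovaries, minus the log2 change without it, from Marcal1del/del and yw ovaries. All 4 groups were reared at 20 °C, each with 3 arrays, and they made up 12 of the 18 arrays of the study. The other 6 arrays held Marcal1del/del and yw ovaries from 25 °C, a temperature that the labels call a heat stress, and they served as separate arrays of the change without RpII2154/FM7, except in 1 alternative fit of all 18 arrays. Samples were taken by their titles. The design text calls the 3 samples of a group biologically independent.

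RpII2154/FM7 females have 1 mutant copy of RpII215, which encodes the catalytic large subunit of RNA polymerase II, and the balancer carries the other copy of the gene. In the genotype labels, RpII2154/FM7 replicate 2 is written with FM8 and replicate 3 with FM9 in place of FM7. The sources used here do not say how the stocks were related to each other or which other alleles they share. The array names in the labels fell into 2 series, with every yw and Marcal1del/del array in one and every RpII2154/FM7 and RpII2154/FM7;Marcal1del/del array in the other. Each of the 2 changes therefore lay within 1 series, but array series and RpII2154/FM7 genotype cannot be told apart.

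Marcal1 is the fly counterpart of human SMARCAL1, an ATPase of the SNF2 family that rewinds single-stranded DNA into double helix and acts at stalled replication forks. Loss of SMARCAL1 in people causes Schimke immuno-osseous dysplasia, a disorder that is not seen in every carrier of a pair of mutant alleles. RNA polymerase II transcribes all messenger RNAs, and mutations of its largest subunit disturb the output of many genes at once. By its title, the study was about whether such disturbances bear on the outcome of SMARCAL1 mutations, and the comparison of both backgrounds asks which transcripts responded to the Marcal1 deletion differently when RpII215 was also mutant.

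Of 18769 probe sets, 145 (0.773%) differed between the backgrounds at a limma adjusted p under 0.05, 81 with a positive and 64 with a negative difference of changes. At an unadjusted p under 0.05 there were 1796, against 938 to be had when nothing differs. The absolute difference of the 145 had a median of 1.44 on the log2 scale, with a range of 0.646 to 5.38, and the standard error of a difference had a median of 0.198 over all probe sets. A difference of 1.44 corresponds to a 2.71-fold ratio of the 2 changes. Of the 145, 126 named 1 gene, 3 named several and 16 named none. With each of 11982 genes represented by its brightest probe set, 115 genes (0.96%) passed, 61 with a positive and 54 with a negative difference.

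The change with RpII2154/FM7 passed the test for 274 probe sets (1.46%), 104 of them higher in RpII2154/FM7;Marcal1del/del than in RpII2154/FM7. The change without it passed for 175 (0.932%), 71 of them higher in Marcal1del/del than in yw. Only 18 probe sets passed both tests in the same direction, which is 6.57% of the calls with RpII2154/FM7 and 10.3% of those without it, and 12 passed both in opposite directions. When the arrays were quantile normalized, 142 of 288 calls with RpII2154/FM7 were higher, a larger share than in the values as deposited. A probe set that passed in 1 background and not in the other need not differ between them: 194 of the calls with RpII2154/FM7 alone and 81 of those without it alone did not pass the test of the difference.

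**Figure D1:**
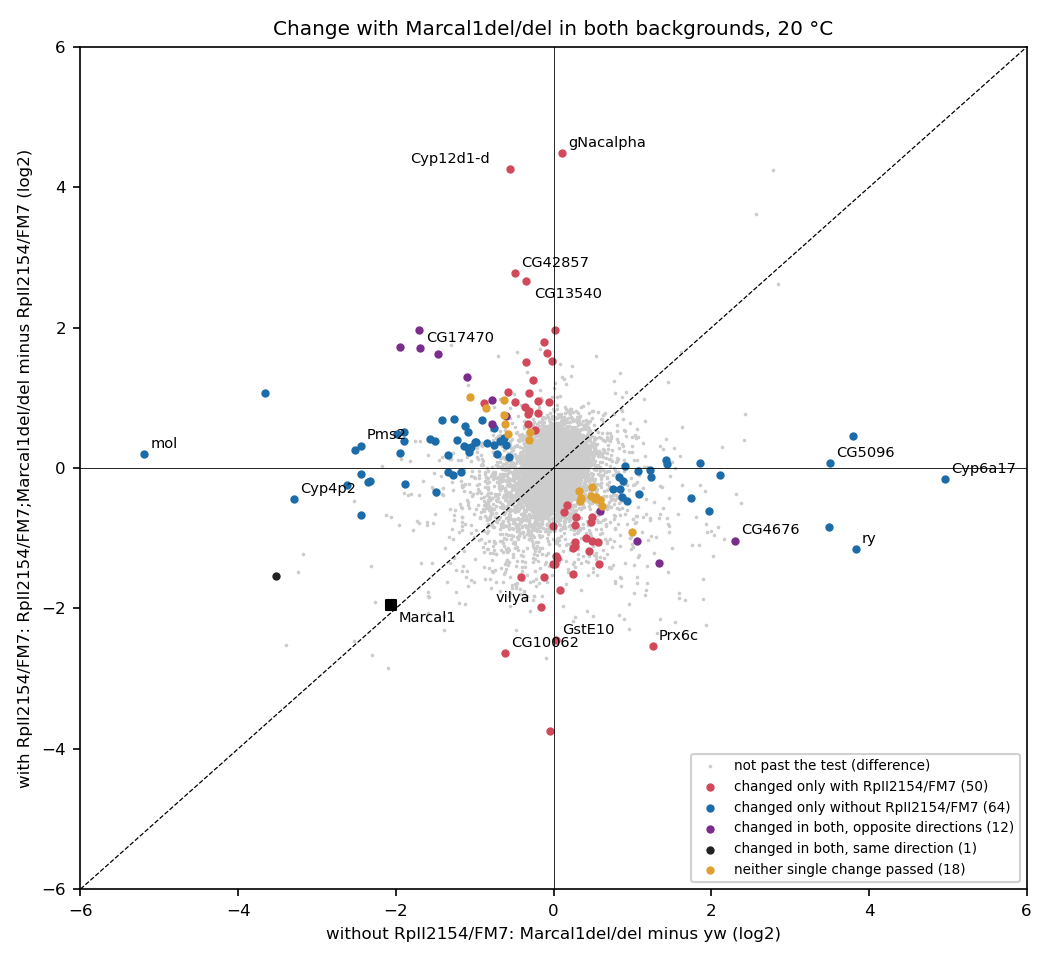
The log2 change of every probe set with RpII2154/FM7 (vertical axis) against the change without it (horizontal axis), at 20 °C, with the 145 that differed coloured by which of the 2 changes passed its own test and the dashed line marking equal changes. The coloured points lie mainly along the 2 axes, 64 on the horizontal and 50 on the vertical class, and Marcal1 lies on the dashed line.

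By the calls of the 2 changes, 64 of the 145 probe sets changed without RpII2154/FM7 only, 50 with it only, 12 in both with opposite directions and 1 in both with the same direction, and for 18 neither change passed alone. The group means were also described by whether 1 group stood apart, with the other 3 means spanning at most 1/3 of its distance from them. That left 97 mixed patterns, while RpII2154/FM7;Marcal1del/del stood apart for 15 probe sets, RpII2154/FM7 for 8, Marcal1del/del for 15 and yw for 10. Both descriptions use the values behind the test and add no evidence to it.

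The Marcal1 probe set itself changed alike in both backgrounds. Its log2 level was 5.41, 6.12 and 5.98 on RpII2154/FM7;Marcal1del/del arrays and 7.56, 7.87 and 7.94 on RpII2154/FM7 arrays. On Marcal1del/del arrays it was 5.85, 5.90 and 5.87, against 8.48, 7.53 and 7.81 on yw arrays. The groups with the deletion did not overlap with the groups without it. Their levels of 5.41 to 6.12 still lay above the array medians of 4.08 to 4.20, and the source of that signal was not tested. Marcal1 fell by 1.95 with RpII2154/FM7 (3.88-fold, adjusted p = 0.00106) and by 2.07 without it (4.19-fold, adjusted p = 0.000544), and the difference of 0.11 ± 0.32 (SE) had an adjusted p of 0.954. RpII215 had no probe set that names it alone, and neither did w, so neither was checked. The X-linked body colour gene y gave 0.27 ± 0.19 (adjusted p = 0.721). Its group means of 3.14 to 3.43 lay under every array median, where a difference may go unseen.

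Among the 64 probe sets that changed only in the absence of RpII2154/FM7, mol had the largest difference. This gene, moladietz, encodes the maturation factor of the hydrogen peroxide producing enzyme Duox. Its log2 level was 9.77, 9.77 and 9.36 on RpII2154/FM7;Marcal1del/del arrays and 9.14, 9.57 and 9.60 on RpII2154/FM7 arrays. Marcal1del/del arrays gave 4.81, 4.02 and 4.25, against 10.10, 9.38 and 9.16 on yw arrays. Thus 3 groups overlapped and the Marcal1del/del arrays lay far below all of them. RpII2154/FM7;Marcal1del/del ovaries are also homozygous for the deletion, and their levels lay with those of the groups without it. How the Marcal1del/del stock relates to the others is unknown here. Whether another difference of that stock gave the low level was not tested, for mol or for other genes where Marcal1del/del alone stood apart. mol fell by 5.19 without RpII2154/FM7 (36.5-fold), the change with it was 0.19, and the difference was 5.38 ± 0.36 (adjusted p = 8.54e-06).

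CG5096 showed the reverse picture, with Marcal1del/del above the rest. It had 3.93, 3.74 and 4.30 on RpII2154/FM7;Marcal1del/del arrays and 4.01, 4.08 and 3.68 on RpII2154/FM7 arrays. The Marcal1del/del arrays had 6.90, 7.68 and 7.34, against 3.86, 3.81 and 3.75 on yw arrays. The low levels were near or below the array medians of 4.08 to 4.20, and RMA values carry no detection call, so folds that start there are ratios of normalized intensity near background. The gene rose by 3.50 (11.3-fold) without RpII2154/FM7, and the difference was -3.43 ± 0.27 (adjusted p = 4.36e-05).

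Pms2, a DNA mismatch repair protein, had 8.58, 8.61 and 8.47 on RpII2154/FM7;Marcal1del/del arrays and 8.14, 8.24 and 8.31 on RpII2154/FM7 arrays. It had 6.18, 5.75 and 5.87 on Marcal1del/del arrays, against 8.54, 8.35 and 8.25 on yw arrays. Again Marcal1del/del alone was low, without overlap. The fall of 2.44 without RpII2154/FM7 (5.44-fold) stood beside a change of 0.32 with it, a difference of 2.77 ± 0.18 (adjusted p = 6.99e-06). bwa, brainwashing, which encodes an alkaline ceramidase, had 7.15, 7.25 and 7.30 with both mutations and 7.61, 7.34 and 7.48 in RpII2154/FM7. Its Marcal1del/del levels were 5.71, 5.18 and 4.82, against 7.53, 8.18 and 7.87 in yw, and its difference was 2.38 ± 0.29 (adjusted p = 0.00161).

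For 10 probe sets it was yw that stood apart from the other 3 groups. How the yw stock relates to the others is unknown here, so the Marcal1 deletion and another difference of the yw stock cannot be told apart for these changes, at 20 °C or at 25 °C. Cyp6a17, a cytochrome P450 known in flies for its part in temperature preference, had 8.12, 8.23 and 8.15 on RpII2154/FM7;Marcal1del/del arrays and 8.29, 8.33 and 8.38 on RpII2154/FM7 arrays. It had 8.68, 7.92 and 8.58 on Marcal1del/del arrays, against 3.52, 3.18 and 3.60 on yw arrays. The yw level lay under every array median and the other 9 arrays were near each other. Cyp6a17 rose by 4.96 without RpII2154/FM7 (31.1-fold), while the change with it was -0.16, a difference of -5.12 ± 0.25 (adjusted p = 5.92e-07).

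Cyp4p2 ran the other way, with yw as the high group. It had 4.03, 3.46 and 3.74 on RpII2154/FM7;Marcal1del/del arrays and 4.43, 4.45 and 3.70 on RpII2154/FM7 arrays. Levels of 3.56, 3.60 and 3.73 on Marcal1del/del arrays stood against 6.72, 7.23 and 6.82 on yw arrays. It fell by 3.29 without RpII2154/FM7 (9.81-fold), and the difference was 2.85 ± 0.30 (adjusted p = 0.000428). Cyp4e2 was high in all groups but differed in yw, with 10.41, 10.22 and 10.29 with both mutations, 10.35, 10.34 and 10.37 in RpII2154/FM7, 10.58, 10.30 and 10.56 in Marcal1del/del and 9.35, 9.37 and 9.52 in yw. Its difference was -1.11 ± 0.15 (adjusted p = 0.00278). The P450 genes Cyp4p1 and Cyp6a13 also had yw as the high group, with differences of 1.29 and 1.88.

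ry, rosy, encodes xanthine dehydrogenase, the enzyme that makes urate and that depends on the molybdenum cofactor. It had 3.68, 3.67 and 4.37 on RpII2154/FM7;Marcal1del/del arrays and 4.90, 4.26 and 6.03 on RpII2154/FM7 arrays. It had 7.65, 7.52 and 7.26 on Marcal1del/del arrays, against 3.87, 3.75 and 3.32 on yw arrays. Marcal1del/del was high without overlap and the RpII2154/FM7 arrays varied most. The rise of 3.83 without RpII2154/FM7 (14.2-fold) and the change of -1.15 with it, which did not pass (adjusted p = 0.13), gave a difference of -4.99 ± 0.50 (adjusted p = 0.000306).

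Other large differences in this class were those of CG13138 (-4.34 ± 0.66), jtb, the fly homologue of the jumping translocation breakpoint gene (-2.60 ± 0.35), and Mrp5, an ABC transporter (-2.17 ± 0.17), each higher in Marcal1del/del than in yw. CG10013 (2.77 ± 0.24), CG7695 (2.48 ± 0.44), CG5953 (2.41 ± 0.48) and CG2993 (2.36 ± 0.40) were each lower in Marcal1del/del than in yw. All 7 passed at an adjusted p between 4.36e-05 for Mrp5 and 0.0437 for CG5953. A second probe set of CG5953, with group means of 8.60 to 8.95, had a difference of 0.15 ± 0.19 that did not pass (adjusted p = 0.87).

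The change without RpII2154/FM7 was measured again on the 6 arrays from 25 °C, which took no part in the test that gave the 145 differences. At 25 °C, 245 probe sets (1.31%) passed for Marcal1del/del against yw. Of the 64 probe sets that changed only without RpII2154/FM7 at 20 °C, 44 passed at 25 °C in the same direction, 68.8% of them, none passed in the opposite direction, and 64 had the same sign. The median absolute change of the 64 was 1.07 at 25 °C and 1.31 at 20 °C. Of the 50 that changed only with RpII2154/FM7, 2 passed at 25 °C, 4.0%, with a median absolute change of 0.277 at 25 °C and 0.270 at 20 °C. The classes were set by whether this same change passed at 20 °C, so the gap between 68.8% and 4.0% follows largely from the classes. No array from 25 °C carried RpII2154/FM7, so the change with it was not measured again. The arrays from 25 °C compare the same pair of genotypes, Marcal1del/del and yw. Whether a recurring change came from the deletion or from another difference between these stocks was therefore not tested. At 25 °C the change of mol was -5.00 (32.0-fold), that of Cyp6a17 4.05 (16.6-fold), that of ry 3.77 (13.7-fold), that of CG5096 2.85 (7.22-fold) and that of Cyp4p2 -2.73 (6.65-fold). Pms2 was an exception among the largest. Its 25 °C levels were 7.84, 7.90 and 8.02 on Marcal1del/del arrays, against 8.22, 8.85 and 8.56 on yw arrays, and the change of -0.62 did not pass (adjusted p = 0.18). bwa had -1.26 at 25 °C, which did not pass either (adjusted p = 0.13).

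**Figure D2:**
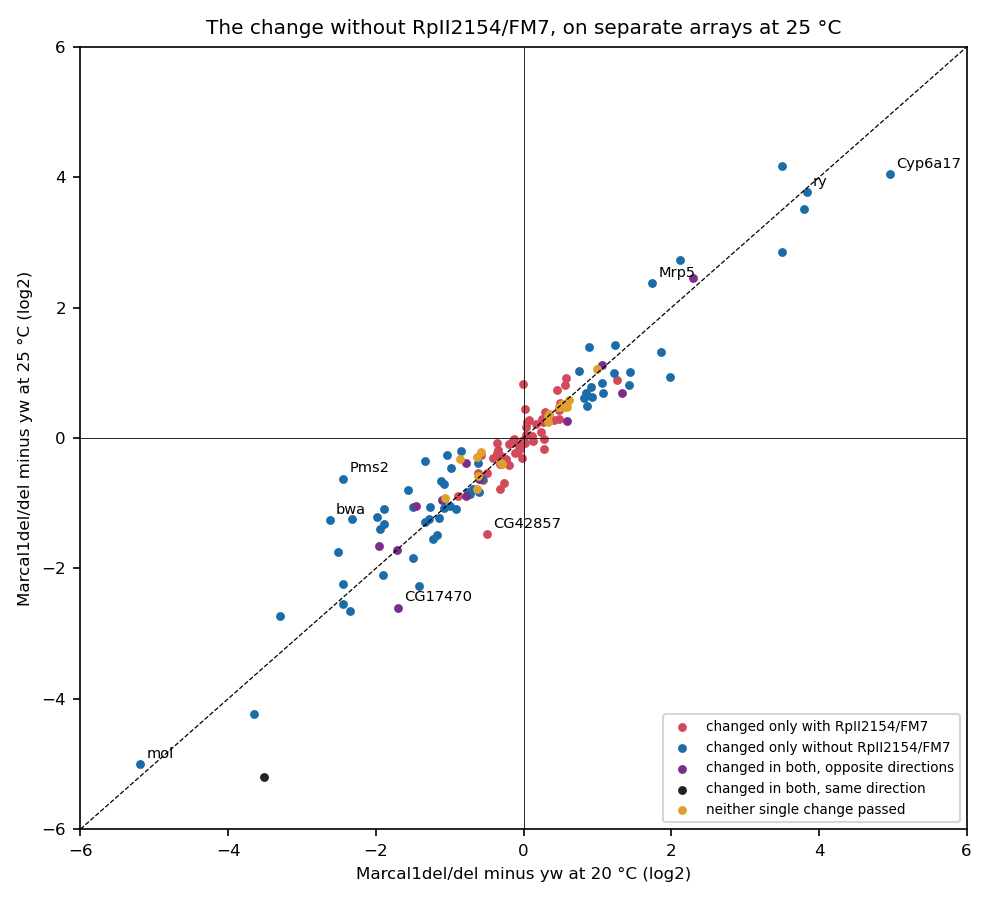
The log2 change of Marcal1del/del against yw at 25 °C (vertical axis) and at 20 °C (horizontal axis) for the 145 probe sets, coloured by which change passed at 20 °C, with the dashed line marking equal changes. Probe sets that changed only without RpII2154/FM7 follow the line, with mol at -5.00 at 25 °C and -5.19 at 20 °C, while Pms2 lies at -0.62 at 25 °C and -2.44 at 20 °C and those that changed only with RpII2154/FM7 gather near 0.

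Of the 50 probe sets that changed only in the presence of RpII2154/FM7, gNacalpha had the largest rise. Its product is the germline form of NAC alpha, part of a complex that binds new protein chains at the ribosome. Its log2 level was 8.47, 8.24 and 8.30 on RpII2154/FM7;Marcal1del/del arrays and 3.79, 3.70 and 4.05 on RpII2154/FM7 arrays. It was 3.77, 3.39 and 3.61 on Marcal1del/del arrays, against 3.74, 3.35 and 3.35 on yw arrays. Only the arrays with both mutations were above the array medians. The rise of 4.48 with RpII2154/FM7 (22.4-fold) stood beside a change of 0.11 without it, a difference of 4.37 ± 0.21 (adjusted p = 5.92e-07).

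Cyp12d1-d, a P450 that insecticides and other foreign compounds induce in flies, showed the same picture. It had 7.26, 7.70 and 7.49 on RpII2154/FM7;Marcal1del/del arrays and 3.30, 3.03 and 3.33 on RpII2154/FM7 arrays. Levels were 2.72, 2.93 and 2.90 on Marcal1del/del arrays, against 3.19, 3.23 and 3.80 on yw arrays. The rise was 4.26 (19.2-fold) with RpII2154/FM7, and the difference was 4.82 ± 0.24 (adjusted p = 5.92e-07). Cyp12d1-d has a near-identical copy, Cyp12d1-p, and a probe set shared by both also passed, so the copies may not be told apart. On the shared probe set the levels were 6.91, 6.98 and 6.70 with both mutations and 5.05, 5.45 and 4.89 in RpII2154/FM7, with 4.16, 4.20 and 4.19 in Marcal1del/del and 6.57, 5.78 and 6.05 in yw. There the changes had opposite directions, 1.73 with RpII2154/FM7 and -1.95 without it.

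CG13540 had 7.48, 7.18 and 7.26 on RpII2154/FM7;Marcal1del/del arrays and 3.99, 4.96 and 4.98 on RpII2154/FM7 arrays. It had 4.00, 4.15 and 3.89 on Marcal1del/del arrays, against 4.70, 4.24 and 4.16 on yw arrays. The group with both mutations was high and the other 3 groups lay close together, giving a difference of 3.02 ± 0.33 (adjusted p = 0.00066). CG42857 was graded instead, with 9.36, 9.39 and 9.10 with both mutations, 6.02, 7.23 and 6.27 in RpII2154/FM7, 3.04, 3.27 and 3.46 in Marcal1del/del and 4.37, 3.35 and 3.52 in yw. Its difference of 3.27 ± 0.43 (adjusted p = 0.0023) did not pass when all 18 arrays shared 1 estimate of the spread (adjusted p = 0.31). At 25 °C it had 4.05, 5.87 and 5.66 in Marcal1del/del and 3.59, 8.24 and 8.17 in yw.

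RpII2154/FM7 itself was the group that stood apart for 8 probe sets, each with a negative difference, so that the level in RpII2154/FM7;Marcal1del/del was near those of Marcal1del/del and yw. GstE10, a glutathione transferase, had 5.67, 5.42 and 5.60 on RpII2154/FM7;Marcal1del/del arrays and 7.90, 8.03 and 8.13 on RpII2154/FM7 arrays. It had 5.64, 5.43 and 5.30 on Marcal1del/del arrays, against 5.82, 5.02 and 5.45 on yw arrays. It fell by 2.46 with RpII2154/FM7 (5.49-fold), against 0.03 without it, a difference of -2.48 ± 0.25 (adjusted p = 0.000306). CG10062 had 4.01, 3.64 and 3.76 with both mutations, 6.88, 6.07 and 6.36 in RpII2154/FM7, 3.67, 3.48 and 3.45 in Marcal1del/del and 4.01, 4.18 and 4.26 in yw, a difference of -2.02 ± 0.25 (adjusted p = 0.00175).

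vilya, a RING-domain protein needed for meiotic double-strand breaks in the female germline, had 4.58, 4.33 and 4.44 on RpII2154/FM7;Marcal1del/del arrays and 6.09, 6.32 and 6.86 on RpII2154/FM7 arrays. It had 4.31, 4.17 and 4.27 on Marcal1del/del arrays, against 4.91, 3.94 and 4.36 on yw arrays. Only RpII2154/FM7 was high, and the difference was -1.82 ± 0.32 (adjusted p = 0.0223). A probe set shared by CG18675 and tipE had the largest fall with RpII2154/FM7, -3.74, with 2.56, 2.58 and 2.59 with both mutations, 6.63, 6.06 and 6.27 in RpII2154/FM7, 2.75, 2.69 and 2.92 in Marcal1del/del and 2.58, 3.13 and 2.77 in yw. Whether its signal came from one or both genes was not tested.

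Prx6c, a peroxiredoxin, which reduces peroxides, had its lowest levels with both mutations. It had 5.26, 5.45 and 4.83 on RpII2154/FM7;Marcal1del/del arrays and 7.93, 7.52 and 7.69 on RpII2154/FM7 arrays. It had 9.21, 8.28 and 8.49 on Marcal1del/del arrays, against 7.60, 6.84 and 7.77 on yw arrays. It fell by 2.54 with RpII2154/FM7 (5.80-fold), while the change of 1.26 without it did not pass (adjusted p = 0.059), and the difference was -3.80 ± 0.39 (adjusted p = 0.000359). Orct2, an organic cation transporter (-1.82 ± 0.37, adjusted p = 0.0471), and Lmpt, a LIM-domain protein also found in muscle (-1.94 ± 0.39, adjusted p = 0.0437), fell with RpII2154/FM7 as well.

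**Figure D3:**
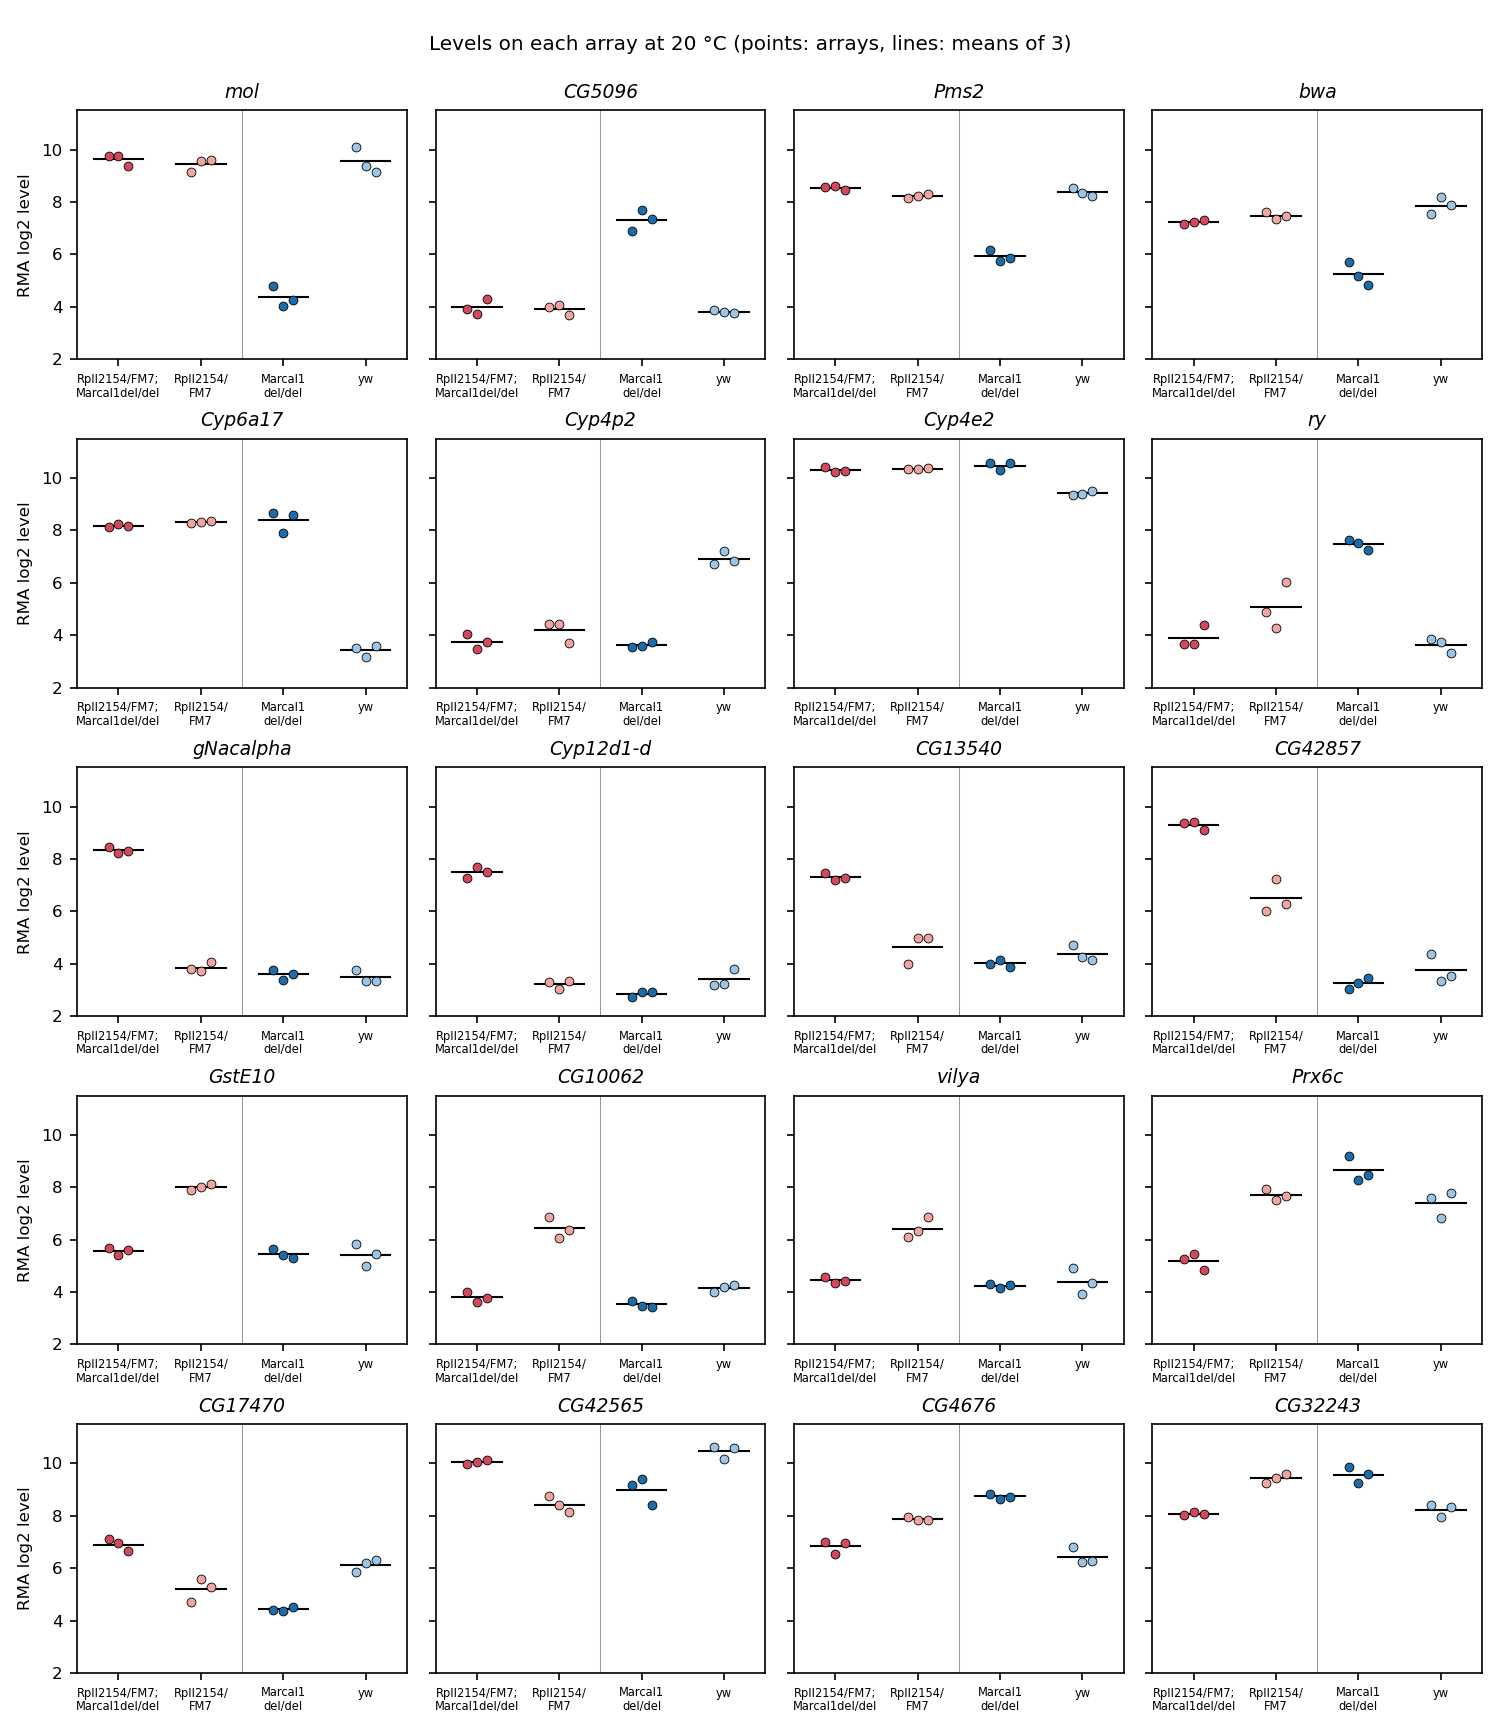
RMA log2 levels of 20 genes on the 12 arrays at 20 °C (vertical axis), with a column of points for each genotype and a line at the mean of its 3 arrays. The upper 2 rows show genes that changed only without RpII2154/FM7, such as mol with Marcal1del/del at 4.02 to 4.81; the next 2 rows show genes that changed only with it, such as gNacalpha with both mutations at 8.24 to 8.47; and the lowest row shows genes whose changes had opposite directions.

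In 12 probe sets both changes passed with opposite directions. CG4676 had 6.98, 6.55 and 6.96 on RpII2154/FM7;Marcal1del/del arrays and 7.93, 7.84 and 7.83 on RpII2154/FM7 arrays. It had 8.85, 8.64 and 8.72 on Marcal1del/del arrays, against 6.80, 6.24 and 6.27 on yw arrays. It thus fell by 1.04 with RpII2154/FM7 and rose by 2.30 without it, with no overlap on either side, and the difference was -3.33 ± 0.23 (adjusted p = 8.54e-06). CG32243 had 8.05, 8.15 and 8.06 with both mutations and 9.25, 9.44 and 9.61 in RpII2154/FM7. Its levels were 9.88, 9.24 and 9.60 in Marcal1del/del and 8.43, 7.95 and 8.34 in yw. The changes of -1.35 and 1.33 were of nearly equal size, and the difference was -2.69 ± 0.24 (adjusted p = 0.00011).

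CG17470 crossed in the other direction. It had 7.10, 6.94 and 6.66 on RpII2154/FM7;Marcal1del/del arrays and 4.71, 5.57 and 5.28 on RpII2154/FM7 arrays. It had 4.40, 4.35 and 4.52 on Marcal1del/del arrays, against 5.87, 6.18 and 6.32 on yw arrays. It rose by 1.71 with RpII2154/FM7 and fell by 1.70 without it, a difference of 3.41 ± 0.28 (adjusted p = 5.38e-05), and at 25 °C, with 4.21, 4.41 and 4.61 in Marcal1del/del and 7.06, 6.95 and 7.03 in yw, it fell by 2.60. CG42565 (1.62 with and -1.46 without RpII2154/FM7, a difference of 3.08 ± 0.33, adjusted p = 0.000469) and CG8066 (1.29 with and -1.10 without it, a difference of 2.40 ± 0.22, adjusted p = 0.000112) behaved alike. Of the 12, 6 passed at 25 °C in the direction they had without RpII2154/FM7 at 20 °C, and 12 had that sign.

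For 18 probe sets the difference passed although neither change did. Oat, ornithine aminotransferase of arginine and proline metabolism, had 8.98, 9.09 and 9.03 with both mutations and 9.90, 9.96 and 9.95 in RpII2154/FM7. It had 9.75, 9.50 and 8.57 in Marcal1del/del, against 8.57, 7.86 and 8.39 in yw. The changes of -0.90 (adjusted p = 0.1) and 1.00 (adjusted p = 0.12) differed by -1.90 ± 0.36 (adjusted p = 0.032). The 1 probe set with both changes in the same direction that also differed named the noncoding gene CR44101, which fell by 1.53 with RpII2154/FM7 and by 3.52 without it, a difference of 1.99 ± 0.28 (adjusted p = 0.0046).

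Cytochrome P450 enzymes oxidise foreign compounds, hormones and fatty acids. Of 83 measured P450 genes, 7 passed the test of the difference, 8.43% against 0.96% of all genes, 5 with a positive difference (Cyp12d1-d, Cyp4p2, Cyp4p1, Cyp6a13 and Cyp6d4) and 2 with a negative one (Cyp6a17 and Cyp4e2). They were not of 1 pattern: yw stood apart for 5 of them and RpII2154/FM7;Marcal1del/del for Cyp12d1-d and Cyp6d4. The median over the 83 was -0.02, against 0.03 over all genes. With RpII2154/FM7, 2 P450 genes rose and 2 fell, and without it 2 rose and 6 fell. Over all probe sets and both directions, 1.46% passed with RpII2154/FM7 and 0.932% without it. The count depended on single arrays: 4 P450 genes passed, 2 positive and 2 negative, without RpII2154/FM7;Marcal1del/del replicate 1 or 3, without RpII2154/FM7 replicate 2, and without yw replicate 2 or 3. When yw replicate 1 and RpII2154/FM7 replicate 3 were both left out, the 2 arrays with the lowest eggshell RNA in their groups, 11 P450 genes passed, 7 positive and 4 negative.

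Glutathione transferases conjugate glutathione to reactive compounds, and 3 of 36 passed, 8.33% against 0.96% of all genes. This count also hung on single arrays. Without yw replicate 1 or 2, or RpII2154/FM7;Marcal1del/del replicate 1 or 3, 1 positive and 1 negative passed. Without yw replicate 3, 2 negative ones did. GstE10 and GstD2 (-1.33 ± 0.26, adjusted p = 0.0358) had negative differences and GstT3 a small positive one (0.73 ± 0.12, adjusted p = 0.014), with a median of 0.20 over the 36. Among 16 genes of peroxide and superoxide defence, Prx6c alone passed. None of 35 UDP-glycosyltransferases and none of 27 heat shock and chaperone genes passed, with medians of 0.01 and 0.04. An unadjusted p under 0.05 was had by 4 and 1 of them, and by 1292 of all 11982 genes.

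**Figure D4:**
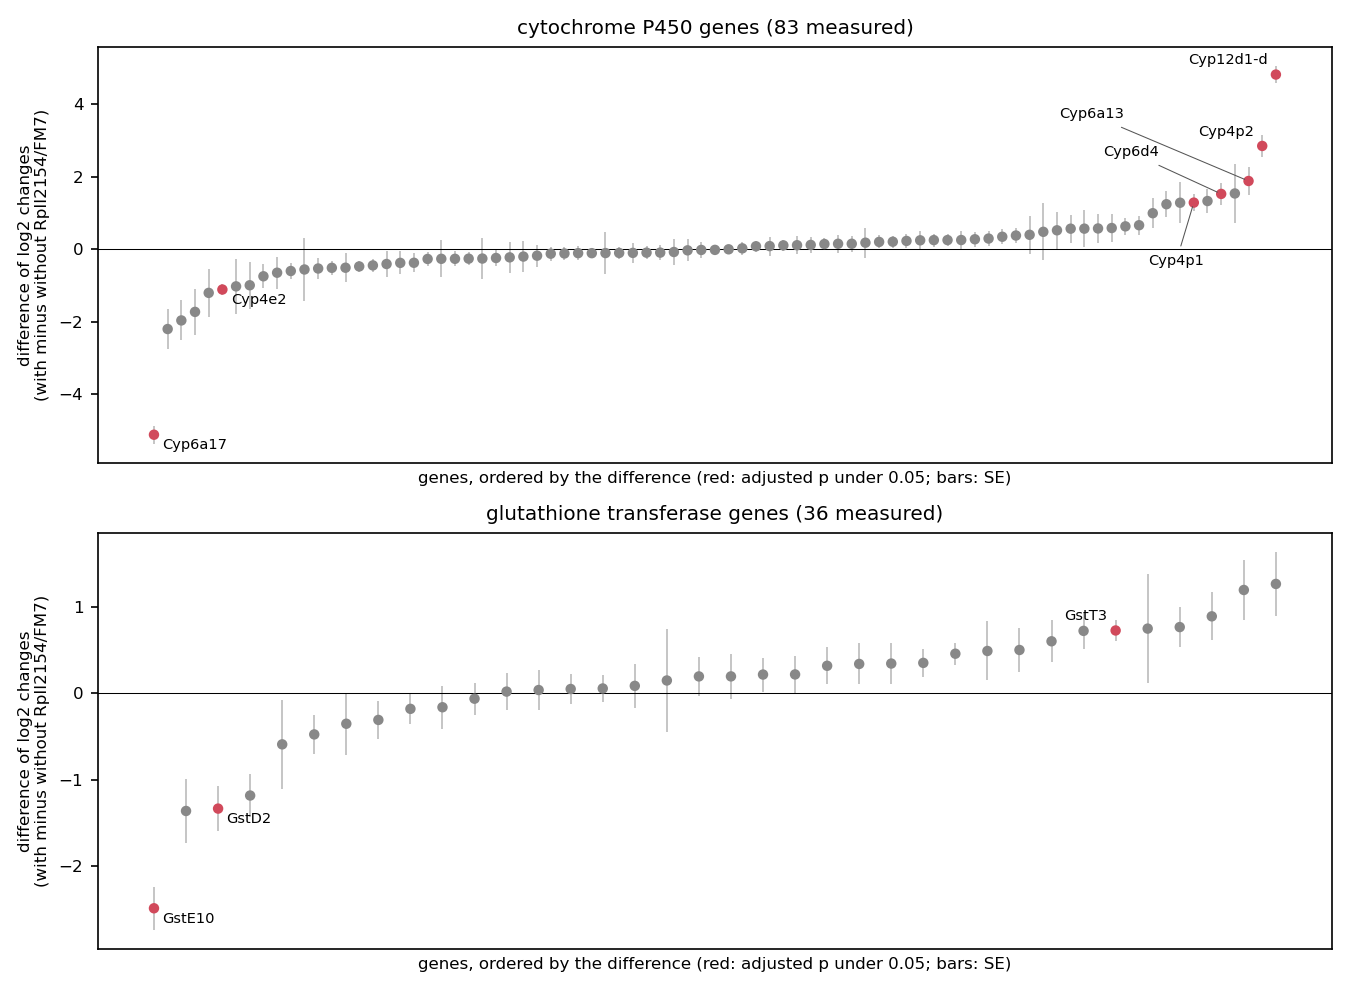
The difference of the log2 changes, with minus without RpII2154/FM7, for the 83 P450 genes (above) and 36 glutathione transferase genes (below), ordered by value, with bars for the standard error and genes past the test in red. Most genes lie near 0, and Cyp12d1-d at 4.82 and Cyp6a17 at -5.12 form the ends of the P450 row, with GstE10 at -2.48 as the lowest transferase.

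In lipid storage and synthesis 3 of 20 genes passed, 15% against 0.96% of all genes, each with a positive difference. Besides bwa these were AcCoAS, the acetyl-CoA synthase (1.45 ± 0.17, adjusted p = 0.001), and SCAP, the escort of the lipid-sensing factor SREBP (1.37 ± 0.18, adjusted p = 0.00202). AcCoAS had 9.70, 9.79 and 10.01 with both mutations and 9.45, 9.66 and 9.45 in RpII2154/FM7, and 9.27, 9.35 and 9.15 in Marcal1del/del against 10.23, 10.51 and 10.46 in yw. Both genes fell without RpII2154/FM7, by 1.14 and 1.00, and both also fell at 25 °C, by 1.22 and 1.05. SREBP itself had a difference of 0.62, which did not pass, and the median of the 20 genes was 0.13.

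With 0.96% of all genes past the test, groups as small as those nearest to the 2 mutated genes would hold few calls or none. Over all genes, 1292 of 11982 had an unadjusted p under 0.05. None of 6 RNA polymerase II subunits, 24 elongation and pausing genes, 40 Mediator and TFIID genes and 14 SNF2-family ATPases passed, with medians of 0.08, 0.07, 0.15 and -0.01, and with 2, 4, 4 and 1 of them at an unadjusted p under 0.05. Among the polymerase subunits the values ran between -0.90 for Polr2L and 0.68 for Polr2E. Of 34 DNA replication genes none passed and 4 had an unadjusted p under 0.05, although 30 had a positive difference and their median was 0.23. The share of positive differences over all genes was 54.4%. The replication median was 0.15 when Marcal1del/del replicate 2 was left out and was 0.36 when replicate 3 of that group was. Leaving out yw replicate 1 gave 0.13. Of 37 DNA repair genes Pms2 alone passed, and Msh6, a mismatch recognition protein, had 0.62, which did not.

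Single genes passed in several other groups, against 0.96% of all genes. The remaining 5 measured genes of the nascent polypeptide-associated complex lay between -0.37 and 0.37, and Nacalpha, the general alpha subunit, had 0.01. bam, which drives germline cysts out of the stem cell state, had a positive difference of 1.65 ± 0.32 (adjusted p = 0.0364) and was the only one of 30 germline and maternal genes to pass. nxf2, a cofactor of piRNA-guided transposon silencing, had -0.75 ± 0.14 (adjusted p = 0.0345), 1 of 28 piRNA genes. vilya was the 1 of 17 meiotic recombination genes, PGRP-LB, an amidase that dampens Imd immune signalling (-1.42 ± 0.27, adjusted p = 0.0356), the 1 of 26 immune genes, and ry the 1 of 12 purine and molybdenum cofactor genes. No gene passed among 34 cytosolic ribosomal protein genes, 74 of oxidative phosphorylation, 40 of the proteasome, 26 of ecdysteroid synthesis and response, 13 of cell death and 6 of NAD synthesis, while 2, 4, 1, 6, 2 and 2 of them had an unadjusted p under 0.05.

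Some genes were measured by several probe sets, and these did not always move together. The following genes were chosen after their values were seen. Of 20 such genes with a probe set past the test, 2 had all their sets past it and 3 had sets past it in opposite directions. lola, a BTB transcription factor gene with many spliced forms, had 3 of 15 sets past the test, with differences of -1.35, 1.31 and 1.39. Cbl, a ubiquitin ligase that turns off receptor tyrosine kinases, had -1.25 on a set with group means of 9.83 with both mutations, 10.60 in RpII2154/FM7, 10.51 in Marcal1del/del and 10.03 in yw. Its other set, with 6.32 with both mutations, 4.80 in RpII2154/FM7, 5.14 in Marcal1del/del and 5.49 in yw, had 1.87. Ptp10D, a receptor tyrosine phosphatase, had -1.25 and 0.93. mod(mdg4), a chromatin protein gene with many forms made by trans-splicing, had 1 of 22 sets past the test, with 7.05 with both mutations, 5.41 in RpII2154/FM7, 5.18 in Marcal1del/del and 5.27 in yw, a difference of 1.73. Of the genes named above, CG5953 and CG42565 each also had a set that did not pass, with differences of 0.15 and 0.31. Lmpt had others at -0.28 and -0.17 that did not pass. Which transcript each set measures was not tested.

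The genes that passed were spread over the chromosome arms. They were 20 of 2205 measured genes on 2L (0.907%), 28 of 2427 on 2R (1.15%), 24 of 2344 on 3L (1.02%), 29 of 2974 on 3R (0.975%), 1 of 65 on chromosome 4 and 11 of 1873 on X (0.587%), the chromosome of RpII215 and of the balancer. Of the 7 genes with a known position for which yw stood apart, 6 were on 2R, among them the adjacent Cyp4p2 and Cyp4p1. 2R held 2427 of the 11893 measured genes with a position. Another gene that passed lay within 3 measured genes for 16 of 113, and how many would without any clustering was not worked out. The 16 held the adjacent pairs Cyp4p2 and Cyp4p1, ry and l(3)87Df, and CG4743 and Idh3g. CG4743 and Idh3g had differences of -0.70 and -1.09. Arms and gene order came from the NCBI annotation of Release 6, and no coordinates are printed, since the genome build of the array annotation is not stated in the sources used here. Among the genes described above, Marcal1, mol, CG5096, bwa, gNacalpha and CG17470 lie on 2L, and Pms2, Cyp6a17, Cyp4p2, Cyp4e2, Cyp12d1-d, CG13540, GstE10, CG10062, Prx6c, CG42565 and CG4676 on 2R. CG32243 and Oat lie on 3L, ry, CG42857 and bam on 3R, and vilya on X.

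Arrays correlated at 0.988 to 0.997 within groups and at 0.981 to 0.993 between groups over all probe sets, and levels of cell type markers varied between arrays of a group. In bulk ovaries, fewer cells of a type and less RNA per cell cannot be told apart. The mean log2 level of 18 eggshell genes, made by late follicle cells, was 9.75, 10.62 and 10.31 on RpII2154/FM7;Marcal1del/del arrays and 12.51, 12.53 and 8.14 on RpII2154/FM7 arrays. It was 12.68, 12.63 and 11.78 on Marcal1del/del arrays, against 9.42, 12.09 and 12.05 on yw arrays. RpII2154/FM7 replicate 3 and yw replicate 1 thus stood well below their groups. None of the 18 genes passed, 17 had a negative difference and the median was -1.88, with 2 at an unadjusted p under 0.05. Over all genes 54.4% of the differences were positive, and 1292 of 11982 genes had an unadjusted p under 0.05. Without those 2 low arrays the median was -2.64, 9 of the 18 passed, all negative, and 254 probe sets passed in all, 112 of them among the 145 and with the same sign. The 2 arrays were picked out by these same eggshell levels, so the 9 calls are no separate evidence about the eggshell genes. The median was -3.73 without RpII2154/FM7 replicate 3 alone and -1.37 without yw replicate 1 alone.

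Markers of other tissues that a dissected ovary can carry also moved. The mean level of 22 muscle genes was 5.91, 5.64 and 6.54 on RpII2154/FM7;Marcal1del/del arrays and 7.26, 6.74 and 7.37 on RpII2154/FM7 arrays, without overlap. It was 5.77, 5.97 and 5.70 on Marcal1del/del arrays, against 5.94, 6.42 and 6.35 on yw arrays. None of the 22 passed the test of the difference, while 20 had a negative difference and the median was -0.74. An unadjusted p under 0.05 was had by 10 of the 22 and by 1292 of all 11982 genes. With RpII2154/FM7 6 of the muscle genes fell, and without it 1 fell. Of all probe sets, 1.46% passed with RpII2154/FM7 and 0.932% without it, in either direction. None of 15 hemocyte, 38 gut, 8 fat body, 7 spermatheca, 23 testis, 15 neuron and 4 yolk genes passed, with medians of -0.17, 0.12, -0.10, -0.43, 0.02, 0.02 and -0.85, and 3, 6, 2, 1, 1, 1 and 0 of them had an unadjusted p under 0.05. The mean level of the hemocyte genes was 4.98, 5.01 and 5.28 with both mutations and 5.71, 5.36 and 5.64 in RpII2154/FM7, also without overlap. In Marcal1del/del it was 5.19, 5.14 and 4.91, against 5.15, 5.40 and 5.24 in yw. The part of these tissues in the 145 differences was not tested.

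**Figure D5:**
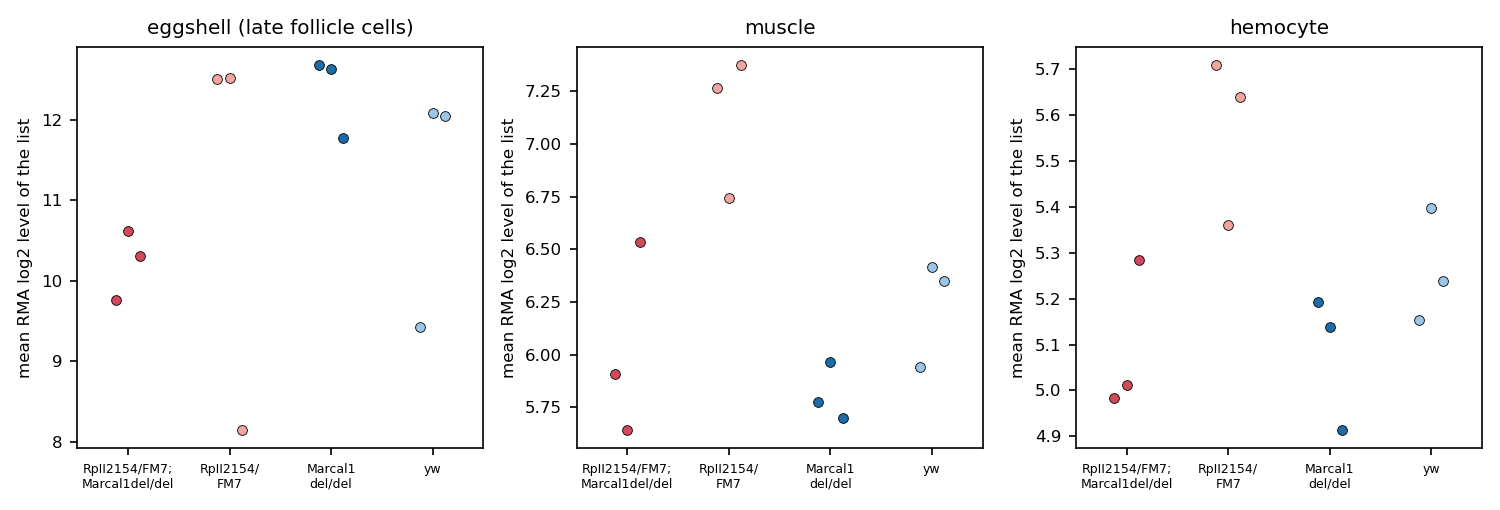
The mean RMA log2 level (vertical axes, which do not start at 0) of 18 eggshell, 22 muscle and 15 hemocyte genes on each of the 12 arrays at 20 °C, 1 point an array, by genotype. In the eggshell genes RpII2154/FM7 replicate 3 at 8.14 and yw replicate 1 at 9.42 lie below the other arrays of their groups, and in the muscle genes all RpII2154/FM7 arrays lie at 6.74 or above.

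The array's control probes gave a measure of RNA quality that also differed between groups. The 3′ minus 5′ log2 signal of actin was 1.70 ± 0.29 in RpII2154/FM7;Marcal1del/del and 1.37 ± 0.17 in RpII2154/FM7, with 1.05 ± 0.15 in Marcal1del/del and 0.97 ± 0.07 in yw (SD, n = 3 each). That of GAPDH was 1.53 ± 0.26 in RpII2154/FM7;Marcal1del/del and 1.49 ± 0.14 in RpII2154/FM7, with 1.28 ± 0.07 in Marcal1del/del and 1.15 ± 0.05 in yw. Its part in the differences was not tested.

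Most of the leading genes did not rest on 1 array. Of the 30 genes named by the size of their difference, 22 passed under each alternative setting that tested them, replicates left out included. The exceptions were CG2993, CG42857, CG5953, CG7695, Lmpt, Oat, Orct2 and vilya, each of which missed the threshold in at least 1 setting, with the highest adjusted p between 0.0522 for CG2993 and 0.31 for CG42857. Of the 8 further genes named from the lists, AcCoAS, SCAP and Cyp4e2 passed in each, and GstD2, GstT3, PGRP-LB, bam and nxf2 missed the threshold in some, with the highest adjusted p between 0.0572 for GstT3 and 0.111 for nxf2. All 145 differences had the same sign in each setting, 115 of them being tested where low probe sets were left out. The settings reuse the arrays that picked these probe sets. They show how far calls hang on single arrays and processing, and they add no separate evidence.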

How the data were processed

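Ovary RNA was measured on Affymetrix Drosophila Genome 2.0 arrays, which group short probes into probe sets. The deposited values are log2 intensities made by the authors with RMA, per the submitters' processing notes; no version of it is given in the sources used here, and RMA removes a shift shared by most transcripts. Of 18952 probe sets, 183 controls were left out and 18769 tested without a filter on low values. The platform annotation, updated through gene identifiers with the NCBI Release 6 table, named 1 gene for 13647, several for 402 and none for 4720.

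limma (version 3.58.1 in R 4.3.3) was fitted to the 12 arrays at 20 °C with 1 mean per group (residual degrees of freedom 8, prior 4.23) and, apart from them, to the 6 arrays at 25 °C (4 and 3.26). P-values were 2-sided and adjusted by Benjamini-Hochberg within each of 4 contrasts, and the scripts were tested on simulated data. The number of arrays limits the precision.

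Named were Marcal1, RpII215, y and w, the 15 largest differences of each sign among genes past the test, and up to 4 such members of each of 33 gene lists (24 pathway, 9 marker). Genes named outside this rule (Cyp4p1, Cyp6a13, Cyp6d4, CG18675, tipE, CR44101, SREBP, Msh6, Polr2L, Polr2E, Nacalpha, l(3)87Df, CG4743, Idh3g and the genes with several probe sets) were chosen after their values were seen. The comparison, its lists and tests were chosen with earlier results of these data known. Alternatives were other normalizations, filters and variance models, a replicate block and arrays left out.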

Additional observations from a re-analysis of the deposited data

Results flagged for a closer look

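The Marcal1del/del change differed between the backgrounds for 145 probe sets by the test of the difference itself. In 12 of them both changes passed with opposite directions, with every array of the deletion group above or below its comparison group. That lack of overlap comes from the same arrays as the calls and adds no evidence to them. The differences (with minus without RpII2154/FM7) were negative for CG4676 (-3.33), CG32243 (-2.69), an unnamed probe set (-2.10) and nom (-1.20). They were positive for 2 unnamed probe sets (1.35 and 3.68), Ehbp1 (1.42), the serpin Spn42Da (1.76), CG8066 (2.40), CG42565 (3.08), CG17470 (3.41) and the probe set shared by Cyp12d1-d and Cyp12d1-p (3.68). nom, Ehbp1 and Spn42Da were named after their values were seen. The brighter probe set of Spn42Da had a difference of 0.27 and did not pass. Groups of 3 arrays are too small for the test of a single outlying value that larger groups allow, so none was run; the 2 arrays with low eggshell levels were picked out by those levels.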

How the results depend on the processing

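The 145 differences became 182 with all 18 arrays in the fit, 135 with array medians subtracted, 139 after quantile normalization, 142 with probe sets of a mean of at least 5, 158 with a trended and robust variance, and 113 with the replicate number as a block. Replicate numbers gave no clear sign of pairing. Deviations of same-numbered arrays of different groups correlated at -0.24 to 0.35, and those of differently numbered arrays at -0.42 to 0.27. With 3 arrays in a group, these values cannot settle whether samples were paired. Array weights gave 284 (144 of the 145 among them; the weights did not fully converge), and 254 passed without yw replicate 1 and RpII2154/FM7 replicate 3. Leaving out 1 array gave 79 (RpII2154/FM7;Marcal1del/del replicate 1) to 187 (RpII2154/FM7 replicate 3), and 80 without yw replicate 3. For the change with RpII2154/FM7, with 274 calls, these were 418 without both arrays and 81 to 381 without 1 array (83 and 94 when the array left out was RpII2154/FM7;Marcal1del/del replicate 1 or 2, 81 for RpII2154/FM7 replicate 1 and 182 for yw replicate 3). For the change without it, with 175, they were 1313 with array weights, 317 without both arrays and 100 to 253 without 1 array (111 and 109 without Marcal1del/del replicates 2 and 3, 106 and 100 without yw replicates 2 and 3). At 25 °C, with 245 calls, they were 671 with array weights and 73 to 406 without 1 array, where each of the 6 arrays moved the count by over 1.5 times. Fewer arrays leave fewer degrees of freedom; the cause of the rises was not tested. Among the 30 genes with the largest differences, the 8 further list members, y and Marcal1, the difference of Marcal1 alone changed sign, and it had no call in any setting. Differences that start near the array medians are limited by signal over background.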
